A study of Sus scrofa with 2 samples.

Results

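The pig transcripts described here carry Ensembl transcript identifiers, are at least 200 bases long, and exclude the 5 abundant ones of 258, 328, 331, 960 and 1571 bases. They were chosen by identifier, length and that list of 5. They number 106 of the 88173 features counted in the series. They lie among 400 Ensembl transcripts, of which 289 are shorter than 200 bases. The other 87773 features are Unigenes, a common name for transcript sequences assembled from reads.

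The series measured RNA from ovaries of Landrace x Yorkshire crossbred gilts, young female pigs, at 30 or 90 days of age. The 6 animals shared housing and diet, no treatment is named, and equal RNA amounts of the animals of an age were pooled before library preparation. Each age thus has 1 library, so the spread between animals cannot be seen and no test between the ages exists. A change in how many cells of a type the ovary held cannot be told apart from a change in RNA per cell. The 30-day library held 9376506 assigned reads and the 90-day library 10706106.

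A length of 200 bases is the usual lower limit for calling a non-coding RNA long. Long non-coding RNAs lack a protein product and are known to act on chromatin, on transcription and on other RNAs. Above the same limit lie several structural RNAs of every cell, such as the RNA of the signal recognition particle, 7SK RNA and the RNA of ribonuclease P. The prepubertal pig ovary is a tissue in which follicles begin to grow while its stroma and steroid-producing cells mature. Names are not paired with identifiers in the files, and the gene name tables hold 0 of these 106 identifiers, so which of these RNAs each transcript is was not established. The ovarian marker lists could not be looked up for the same reason, and no sequence, position or coding status was used.

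Most of the 106 transcripts were rare, and the 10 with the most reads at each age, none longer than 430 bases, held nearly all the reads. They took 143588 reads at day 30, 1.53% of the library (exact 95% interval 1.52 to 1.54), and 116176 reads at day 90, 1.09% (1.08 to 1.09). The ratio of these shares, day 90 over day 30, was 0.709 (0.703 to 0.714). Of the reads outside the 4 features of the series with the most reads, called the leading features below, they held 3.46% at day 30 and 3.54% at day 90, a ratio of 1.02 (1.016 to 1.03), so the direction of this small difference turned with the scale. The 10 with the most reads held 96.1% of the group's reads at day 30 and 91.9% at day 90. At the other end, 63 transcripts had at most 10 reads at day 30 and 67 at day 90. The intervals here and below cover counting error only, because no molecular identifiers are named and animals were not sequenced separately.

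Reads were found for 83 of the 106 transcripts at day 30 and for 86 at day 90, with 63 seen in both pools. Of the 20 seen at day 30 alone, 12 had at most 3 reads, and of the 23 seen at day 90 alone, 20 had at most 3 reads. A count of 0 allows up to 3 reads per library (0.320 CPM at day 30 and 0.280 CPM at day 90; CPM is the count scaled to the library total, 1 CPM being 9.38 reads at day 30 and 10.7 at day 90), so most of these absences were not detectable as differences at this depth. The highest read numbers among them belonged to a 524-base transcript, with 67 reads at day 30 alone, and a 227-base transcript, with 13 reads at day 90 alone.

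The highest levels belonged to transcripts of 204 to 430 bases, and the 9 transcripts with the most reads were the same 9 at both ages, in a different order. The transcript of 297 bases led both pools, with 30005 reads (10774.5 RPKM, the CPM per kilobase of length) at day 30 and 31391 reads (9872 RPKM) at day 90. Its CPM ratio, day 90 over day 30, was 0.916 (0.902 to 0.931), and it was 1.32 (1.30 to 1.34) relative to the reads outside the leading features. That RNA alone held 20.9% of the group's reads at day 30 and 27.0% at day 90.

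Second in RPKM at day 30 stood the transcript of 237 bases, with 23699 reads (10664.5 RPKM). At day 90 it had 10251 reads (4040 RPKM) and stood behind 3 others, a CPM ratio of 0.379 (0.370 to 0.388). The order of these leaders depends on how length is counted. Every feature with 1 read, 1806 at day 30 and 2439 at day 90, was covered over 90 bases, so a read of 90 bases has few possible starts on a short transcript. Per possible start, the 237-base transcript was first at day 30 and the 297-base transcript second. At day 90 the 297-base transcript was first by either measure.

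Among the 9 with the most reads, a pair of 276-base transcripts and those of 410 and 430 bases lay near the same ratio. The remaining ones of the 9 are a 295-base transcript and a pair of 204 bases, given below. One 276-base transcript had 19559 reads at day 30 and 18278 at day 90, a CPM ratio of 0.818 (0.802 to 0.835). Its partner had 14668 and 14519 reads, a ratio of 0.867 (0.847 to 0.887). For the 410-base transcript the numbers were 12811 and 12237, a ratio of 0.837 (0.816 to 0.858). The 430-base transcript, with 6742 and 6215 reads, had a ratio of 0.807 (0.780 to 0.836). The scale decided the direction here. Reads outside the 4 leading features numbered 4155947 and 3284667, and relative to those reads all 4 ratios lay above 1, between 1.17 and 1.25.

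**Figure D1:**
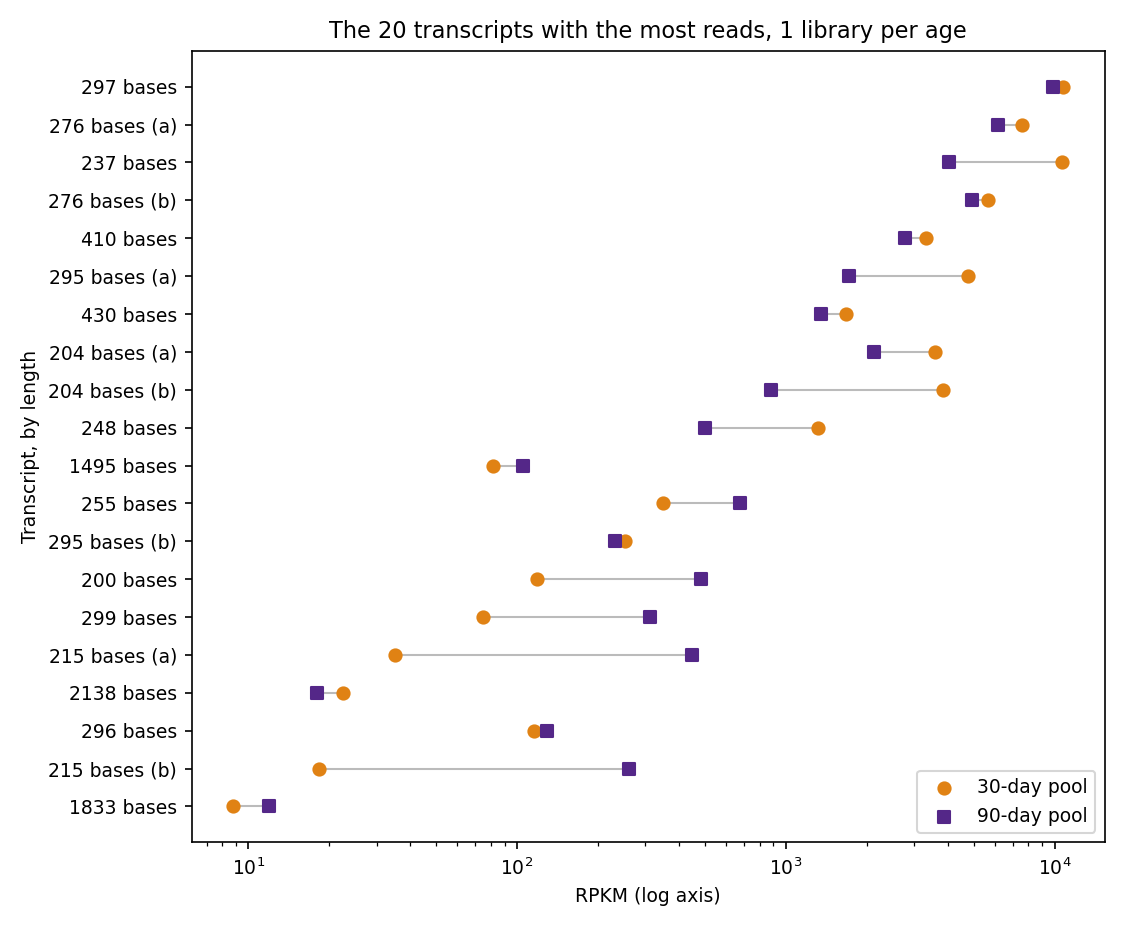
RPKM (log axis) of the 20 transcripts with the most reads, in the 30-day pool (circles) and the 90-day pool (squares), 1 library each, with a line joining the values of a transcript. Letters separate transcripts of equal length, ordered by total reads. The 297-base transcript sits highest in both pools, and the widest gaps are those of 2 transcripts of 215 bases, which lie to the right at day 90.

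The ages were compared for transcripts that reached 1 CPM in 1 pool or both, by log2((CPM at day 90 + 1)/(CPM at day 30 + 1)). This was possible for 45 of the 106, and the other 61 were too low. At day 90, 5 of the 45 were higher by 2-fold or more and 12 lower by 2-fold or more, while 28 lay between. Over all 73973 features compared, 14.6% were higher and 36.6% lower by this rule, against 11.1% and 26.7% of the 45. The median log2 fold of the 45 was -0.31, against -0.49 for all features compared. The shares of the group thus lay below those of the series in both directions. The 106 Ensembl transcripts under 200 bases that could be compared gave 10.4% higher and 31.1% lower, with a median of -0.31. From a mean of 10 CPM upwards, a limit chosen after seeing the data, 4 of 22 were higher and 4 lower, 18.2% each, against 10.1% and 38.3% of all 4945 such features. The difference between these sets was not tested.

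Exact counting intervals of the plain CPM ratio lay wholly beyond 2-fold for all 5 higher and for 10 of the 12 lower transcripts. The 2 whose interval reached inside 2-fold were those of 948 bases (77 reads at day 30 and 37 at day 90) and of 549 bases (26 and 8 reads). Among the 28 between, 9 had a ratio above 1 and 19 below 1, and for 15 the interval held 1.

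The pool total matters for these counts, since the 4 leading features of the series set much of it. These 4 are the excluded Ensembl transcripts of 328, 331, 960 and 1571 bases. Outside them lay 4155947 of the 9376506 reads at day 30 and 3284667 of the 10706106 reads at day 90. Against the library total, the other scalings raised every plain log2 ratio of CPM, without pseudocount, by 0.19 (median log2 ratio of all features set to 0) to 0.53 (a total that leaves out the 4 leading features). Taken over the 36142 features that reached 1 CPM in each pool, its median moved from -0.19 to 0.34 over that range. With the median set to 0, 6 of 45 were higher and 10 lower, against 17.2% and 32.8% of all features. With TMM factors the counts were 7 and 10 of 45, against 21.3% and 30.0% of all features. With median-of-ratios factors they were 7 and 8 of 45, against 21.9% and 29.6%, and with the upper quartile 7 and 7 of 44, against 22.8% and 29.0%. A total that leaves out the 4 leading features gave 12 and 13 of 63, against 30.5% and 32.7%. It also raised every CPM against the fixed pseudocount and filter. The log2 fold with pseudocount could thus fall, as from -3.92 to -4.47 for an 839-base transcript. Under all 6 scalings 5 transcripts were called higher and 6 lower. The call of 10 of the 45 depended on the scaling.

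**Figure D2:**
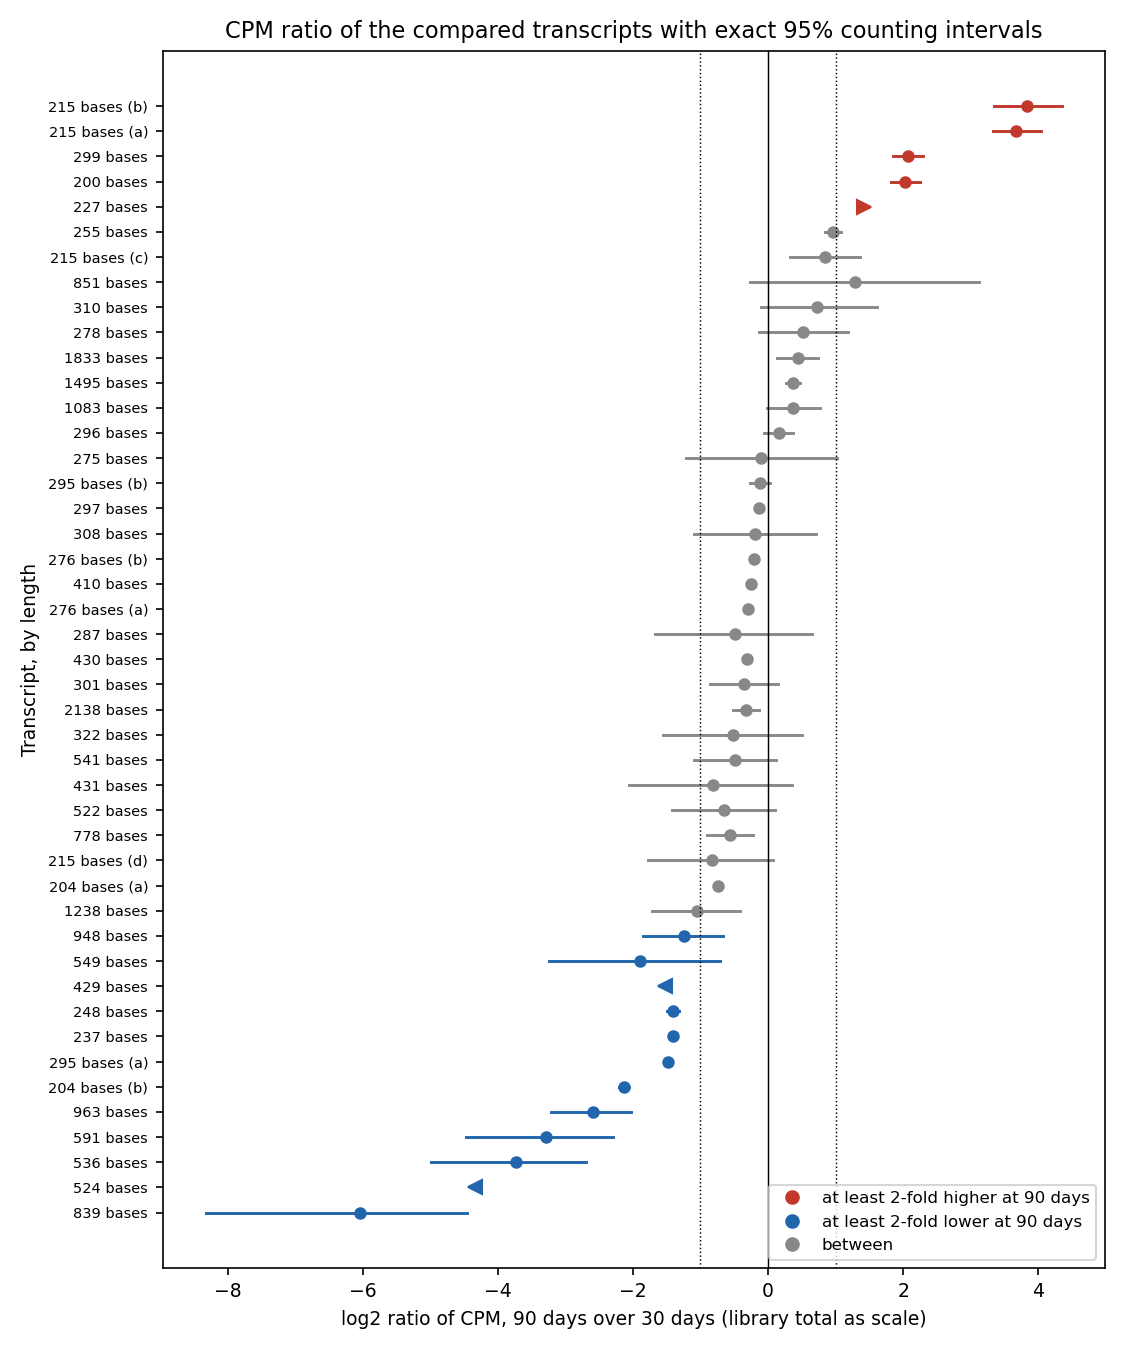
log2 ratio of CPM, day 90 over day 30, with the library total as scale, for the 45 transcripts compared, ordered by the fold with pseudocount. Points are ratios, bars exact 95% counting intervals, and triangles mark the bound of the interval where a pool had no read. Red marks the 5 called higher, blue the 12 called lower, and dotted lines lie at 2-fold.

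The 5 transcripts that were higher at day 90 were all under 300 bases long. The largest fold in this direction belonged to ENSSSCT00000028495, of 215 bases, which had 37 reads at day 30 (3.95 CPM) and 601 at day 90 (56.1 CPM). Its CPM was 14.2-fold higher at day 90 (10.203 to 20.4). ENSSSCT00000030121, also of 215 bases, had 71 reads (7.57 CPM) at day 30 and 1034 (96.6 CPM) at day 90, 12.8-fold more in CPM (10.02 to 16.5). With all 6 scalings the log2 fold of the former lay between 3.53 and 4.22 and that of the latter between 3.51 and 4.13. In RPKM they moved from rank 24 to rank 15 and from rank 17 to rank 13 among the 106.

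The other 3 higher transcripts differed widely in depth. One of just under 300 bases had 209 reads at day 30 and 1004 at day 90, a CPM ratio of 4.21 (3.62 to 4.91). At 200 bases, the shortest of the group had 222 and 1037 reads, a ratio of 4.09 (3.54 to 4.75). The 227-base transcript had no read at day 30 and 13 at day 90, which is at least 3.80-fold higher against a floor of 3 reads in the 30-day library, and its interval began at 2.67. That last one rests on few reads. A 255-base transcript lay just short of the rule with the library total, with 832 and 1842 reads and a ratio of 1.94 (1.79 to 2.11). It passed the rule with each of the other 5 scalings.

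The 12 transcripts that were lower at day 90 fell into 2 kinds by length and level. Of these, 4 were short and abundant, between 204 and 295 bases, and 8 were longer than 400 bases and had at most 172 reads in either pool. The abundant ones had 3072 to 23699 reads at day 30 and 1325 to 10251 at day 90.

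Among the short ones, a 204-base transcript showed the lowest ratio, with 7347 reads at day 30 and 1921 at day 90, a CPM ratio of 0.229 (0.218 to 0.241). The 295-base transcript had 13163 and 5413 reads, a ratio of 0.360 (0.349 to 0.372). For the 248-base transcript the reads were 3072 and 1325, a ratio of 0.378 (0.354 to 0.403). Together with the 237-base transcript (0.379) the latter 2 lay close to each other, and their 3 calls depended on the scaling. Relative to the reads outside the 4 leading features their ratios were 0.520 (295 bases), 0.546 (248 bases) and 0.547 (237 bases), short of 2-fold. The 204-base transcript stayed at 0.331 on that scale and was called lower under all 6 scalings.

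The 8 longer ones included the largest differences of the group. ENSSSCT00000034917, of 839 bases, had 172 reads at day 30 (18.3 CPM) and 3 at day 90 (0.280 CPM), a 65.5-fold higher CPM at day 30 (22.0 to 320.6). ENSSSCT00000035477, of 524 bases, had 67 reads at day 30 (7.15 CPM) and none at day 90, which puts it at least 25.5-fold lower, taking a floor of 3 reads for the older library. That bound takes the 67 reads as exact, and the exact interval gave a weaker bound of 20.2-fold. At day 30 reads covered 97.9% of the 839 bases and 90.5% of the 524 bases, so they did not lie at one spot. As many 90-base reads placed at random would cover 99.1% and 97.7%. The 524-base transcript had 50 bases without a read.

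Next to them stood transcripts of 536, 591 and 963 bases, also lower under all 6 scalings. The 536-base transcript had 93 reads at day 30 and 8 at day 90, a 13.3-fold higher CPM at day 30 (6.46 to 31.6). Its neighbour of 591 bases had 77 and 9 reads, 9.77-fold more in CPM at day 30 (4.89 to 22.2). The 963-base transcript had 159 and 30 reads, 6.05-fold more in CPM at day 30 (4.08 to 9.26). Among the remaining 3, of 429, 549 and 948 bases, each call depended on the scaling. The 429-base one had 11 reads at day 30 and none at day 90, at least 4.19-fold lower against the same floor if the 11 reads are taken as exact, and at least 2.87-fold lower by the exact interval.

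By length, the calls with the library total divided as follows, against 14.6% higher and 36.6% lower of all features. Of the 25 compared transcripts under 400 bases, 5 were higher and 4 lower, with a median log2 fold of -0.13. Of the 20 of 400 bases or more, none was higher and 8 were lower (40%), with a median of -0.51. The lower share and the median of these 20 were near those of all features (36.6% and -0.49). With the median set to 0, TMM, median-of-ratios and upper-quartile scaling, the longer ones gave none higher and 5 or 6 lower. The lower shares, 26.3% to 30.0%, were again near those of all features (29.0% to 32.8%). None higher stood against 17.2% to 22.8% of all features. A total that leaves out the 4 leading features gave 2 higher and 10 lower of 25, against 10 higher and 3 lower of 38 under 400 bases. With that total, 30.5% of all features were higher and 32.7% lower. The median of the longer ones stayed below 0 under all 6 scalings (-0.51 to -0.14), while that of the shorter ones lay above 0 with the 5 scalings other than the library total (0.057 to 0.38). No test of this difference exists with 1 library per age. Read number differed between the classes too. The median compared transcript had 146.5 reads at day 30 and 1035.5 at day 90 from 200 to under 250 bases, and 697 and 1004 from 250 to under 300. It had 21.5 and 29.5 from 300 to under 400 bases, and 85 and 31.5 from 400 bases upwards. The part of read number in these calls was not tested.

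Levels also differed by length class. The 15 transcripts of 200 to under 250 bases held 28.8% of the group's reads at day 30 and 18.1% at day 90, a ratio of their summed CPM of 0.444 (0.437 to 0.451). The 27 of 250 to under 300 bases held 55.4% and 63.4%, a ratio of 0.812 (0.803 to 0.820). The 34 of 300 to under 400 bases were the sparsest class, with 199 reads in all at day 30 and 190 at day 90, and just 4 of them could be compared. The 30 of 400 bases or more held 15.6% and 18.3%, a ratio of 0.831 (0.815 to 0.847), most of it from the 410-base and 430-base transcripts. The ratio of summed CPM of the shortest class was thus the furthest from 1, although this class held 4 of the 5 higher transcripts. These ratios use the library total. A total that leaves out the 4 leading features raises each plain log2 ratio by 0.53. That puts the ratios of 0.812 and 0.831 above 1, while the one of 0.444 stays below 1.

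**Figure D3:**
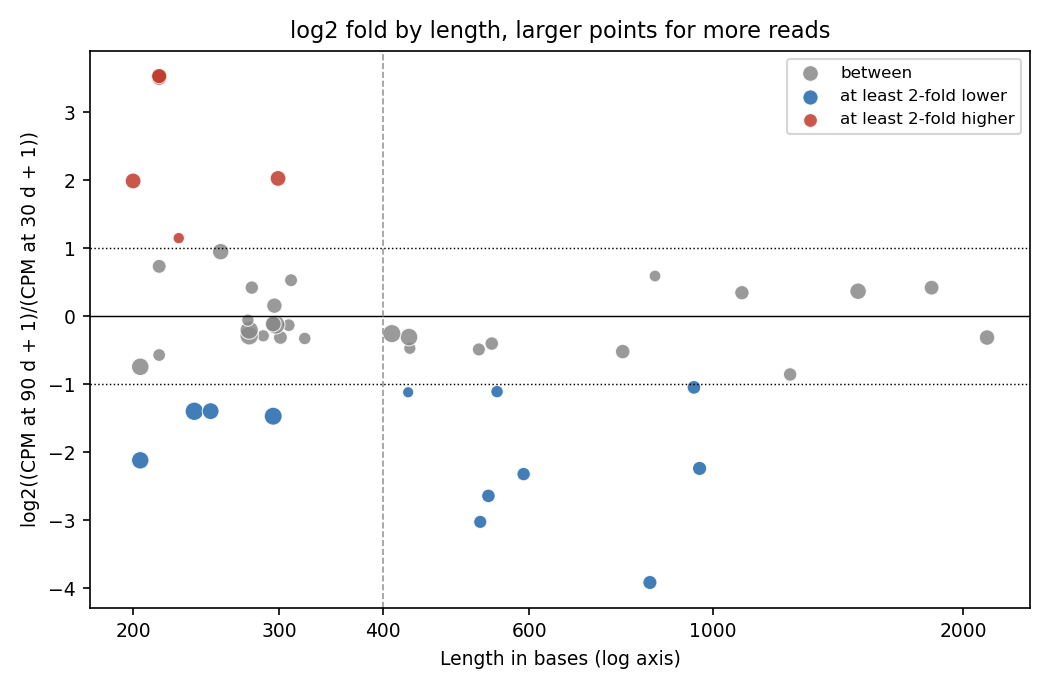
log2((CPM at day 90 + 1)/(CPM at day 30 + 1)) against length (log axis) for the 45 transcripts compared, with larger points for more reads in both pools together and a dashed line at 400 bases. All 5 higher transcripts lie left of the dashed line, and 8 of the 12 lower ones lie right of it.

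The longer transcripts also stood together in identifier number, a grouping noticed after the values were seen. From number 33019 upwards lay 29 of the 106, of which 28 were at least 400 bases long, and their lengths ran from 309 to 2138 bases. The 77 with smaller numbers ran from 200 to 430 bases and included just 2 of 400 bases or more, the abundant ones of 410 and 430 bases. Of all features 14.6% were higher and 36.6% lower. In the later numbers 18 could be compared, with none higher and 8 lower (44.4%) and a median log2 fold of -0.69. In the earlier numbers 27 could be compared, with 5 higher (18.5%) and 4 lower (14.8%) and a median of -0.13. This boundary was placed where it best separates lengths of 400 bases or more, so the split in length follows from how it was drawn. The 18 are the compared transcripts of 400 bases or more without those of 410 and 430 bases, which lay between. Their 8 lower calls are thus the same 8 already given by length, and the split by number adds no second pattern. Only 1 pair of the 106 had consecutive numbers, so runs of neighbouring numbers could not be described.

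Some of the longest transcripts lay between the limits of the rule. The longest, of 2138 bases, had 450 reads at day 30 and 411 at day 90, a CPM ratio of 0.800 (0.698 to 0.916). At 1833 bases the reads were 151 and 234, a ratio of 1.36 (1.10 to 1.68). The 1495-base transcript had 1145 and 1688 reads, a ratio of 1.29 (1.20 to 1.39), and led the later numbers in both pools. The 1083-base transcript had 96 and 142 reads, a ratio of 1.30 (0.993 to 1.70), whose interval held 1. These ratios depend on the scale. Relative to the reads outside the leading features, the 1083-base transcript had a ratio of 1.87 (1.43 to 2.45). That of the 2138-base transcript was then above 1, at 1.16 (1.01 to 1.32). Reads covered at least 96.7% of the length of these 4 transcripts in both pools.

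Transcripts of equal length did not all share a ratio. Among the 106, 37 shared their length with at least 1 other, and 4 lengths held more than 1 compared transcript. The 4 of 215 bases spanned the widest range, from a ratio of 0.563 (0.293 to 1.05, with 28 and 18 reads) to 14.2. Between these, beside the one at 12.8, lay a transcript with 49 reads at day 30 and 100 at day 90, a ratio of 1.79 (1.26 to 2.57). Their summed CPM was 19.7 at day 30 and 163.7 at day 90. Both transcripts of 204 bases were lower in CPM at day 90, at 0.229 and 0.596 (0.574 to 0.619). The 295-base pair had 0.360 and 0.922 (0.830 to 1.02), and the 276-base pair 0.818 and 0.867. The sources used here give no sequences, so whether transcripts of equal length are copies of each other was not tested. The counts hold uniquely assigned reads only, so reads that fit more than 1 transcript equally well are not seen in them.

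How evenly reads lay along a transcript differed within the group, and it did so in nearly the same way in both pools. The covered part of the length was set beside the part that 90-base reads placed at random in the same number would cover. At day 30, 10 of 38 transcripts with at least 20 reads were covered at least 20 percentage points less than that, 26.3%, against 8.84% of all features. At day 90 these were 8 of 32, 25%, against 13.7% of all features. Of the 31 transcripts with at least 20 reads in both pools, 7 fell short at both ages, 22.6%, against 6.93% of all 19180 such features. The difference to the other features was not tested.

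The clearest 2 cases had over 200 reads in each pool. A second 295-base transcript, with 697 reads at day 30 and 734 at day 90, was covered over 73.9% and 73.6% of its length, which leaves 77 and 78 bases without a read. The transcript of just under 300 bases that was higher at day 90 was covered over 77.6% with 209 reads and 75.2% with 1004 reads. Random placement would have covered at least 99.6% in each of these 4 cases. The higher read number of this transcript at day 90 did not come with a wider covered part. The 308-base transcript had 23 reads in each pool and was covered over 32.1% and 29.9%.

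The other 4 short of random placement at both ages were longer. The 778-base transcript was covered over 59.4% with 165 reads and over 35.1% with 128 reads, the largest drop among the 31. The transcripts of 522, 948 and 963 bases were covered over 53.4%, 65.4% and 74.8% at day 30 and over 65.7%, 59.4% and 69.1% at day 90. Counts of such transcripts come from a part of the annotated length, and RPKM, which divides by all of it, is then lower than the level over the covered part.

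In 24 of the 31 transcripts the covered percent of the pools lay within 5 points, and the median difference was 1.21 points. Over all features with at least 20 reads in both pools the median difference was 7.11 points, and 40.7% lay within 5 points. Depth moves with this value, since the most abundant transcripts were covered nearly whole: 12 of the 13 with at least 500 reads in both pools were covered over at least 95% of their length in both. The exception was the second 295-base transcript. Among the 4 transcripts of 215 bases, the 2 higher ones were each covered over 90.2% at day 90. At day 30 they were covered over 92.6% and 68.8% with 71 and 37 reads. The 215-base transcript with 49 and 100 reads was covered over 93.5% and 89.8%, near the first of these. The one with 28 and 18 reads was covered over 92.6% and 80%, and its day 90 reads were below the limit of 20.

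**Figure D4:**
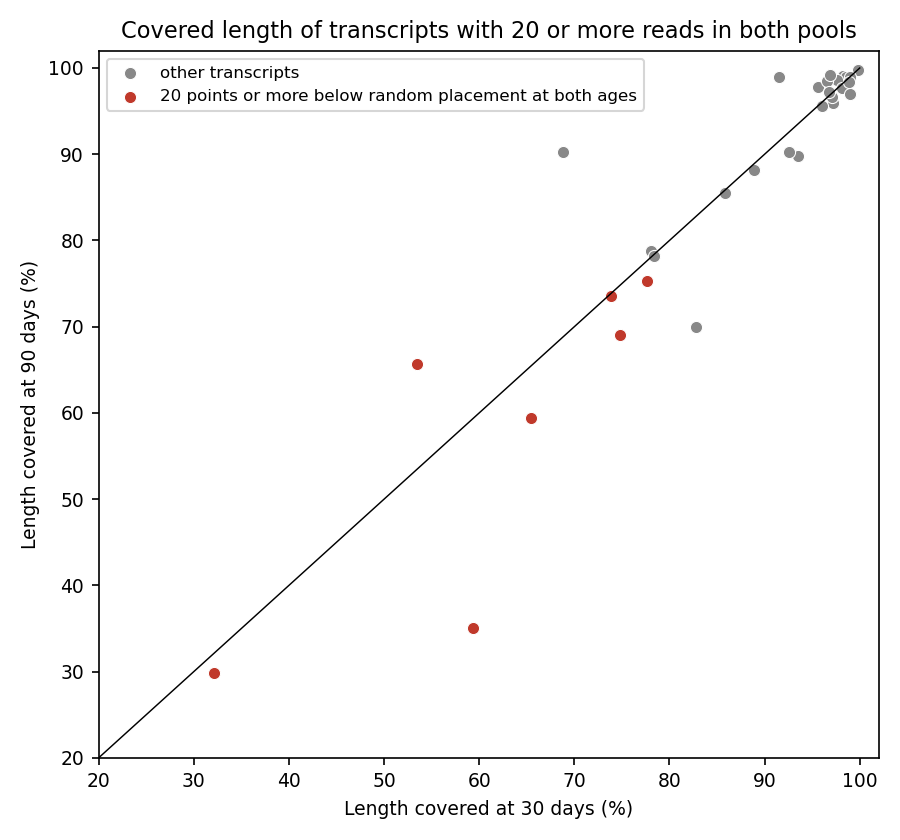
Percent of the length covered by reads at day 30 and at day 90 for the 31 transcripts with at least 20 reads in both pools, with the line of equal values. Red points mark the 7 that lay at least 20 points below random placement at both ages, and 24 of the 31 points lie within 5 points of the line.

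The transcripts on either side of the 200-base limit differed widely in level. Just inside it lay the 200-base transcript (118 RPKM at day 30 and 484 RPKM at day 90) and the 204-base pair (3841 and 880 RPKM, and 3588 and 2138 RPKM). The next ones, of 206 and 210 bases, had at most 4 reads in either pool. Just outside, 6 transcripts of 191 bases ranged from 4 to 65237 reads at day 30 and from 3 to 20680 at day 90. The most abundant of these had 36427 RPKM at day 30 and 10113 RPKM at day 90, above every transcript of the group.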

How the data were processed

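Each library's table was deposited by the authors with 4 values a feature, per the file headers: the read count (uniquely assigned reads), the length, the percent of the length covered, and RPKM. The deposited counts are whole numbers and sum to the totals in the headers, and the deposited RPKM equals count over length and total within a relative tolerance of 1e-06. The submitters' processing notes name TopHat, Cufflinks and Sscrofa10.2. Annotation, counting tool and strandedness: not given in the sources used here.

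Tables list features with at least 1 read, so a feature missing from 1 table got 0 reads there. CPM used the header total, 1 read being worth 0.107 CPM (day 30) or 0.0934 CPM (day 90). The call rule asked for 1 CPM or more in 1 library and a 2-fold difference with a pseudocount of 1 CPM, which understates the change of low features. No p-value was computed, since there is 1 library per age. Intervals are exact (Clopper-Pearson, 95%). Covered length was compared with random placement of 90-base reads. The call rule and the coverage formula were tested on simulated data. Scaling factors came from edgeR 4.0.16 in R 4.3.3, other steps from Python 3.11.15 with scipy 1.17.1.

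The named identifiers are the 2 largest and the 2 smallest log2 folds among compared transcripts whose interval lay beyond 2-fold, and other transcripts are given by length. The transcripts and the rules were chosen with earlier results of these data known. Alternatives covered pseudocount, filter, fold, scaling, coverage and the length limit.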

Additional observations from a re-analysis of the deposited data

How the results depend on the processing

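The median log2 fold of the compared transcripts, -0.31 with the library total, turned positive with TMM factors (0.064), median-of-ratios factors (0.0895), upper-quartile rescaling (0.15) and a total that leaves out the 4 leading features (0.16). Upper-quartile rescaling compared 44 transcripts and the last of these 63, in place of 45. It was -0.13 with the median set to 0, -0.32 with a pseudocount of 0.1 CPM and -0.32 with 0.01 CPM, and -0.15 with no filter beyond 1 read. The ratio of summed CPM, 0.709, became 0.809 with the median set to 0, 0.927 with TMM, 0.944 with median-of-ratios factors, 0.976 with the upper quartile and 1.02 with a total that leaves out the 4 leading features. It was 0.654 without the most abundant transcript and 0.816 from 250 bases upwards. The count of higher transcripts, 5, became 12 with a total that leaves out the 4 leading features, 1 from 250 bases upwards and 3 at 4-fold. The count of lower ones, 12, became 7 with the upper quartile and 6 at 4-fold. Chosen after seeing the data, a mean of at least 10 CPM gave 4 higher and 4 lower with a median of -0.17, and adding the 5 abundant transcripts a median of -0.30. A minimum of 10 reads left 43 transcripts at 30 days and 39 at 90 days. Of all values under an alternative, 5 turned direction, meaning a median that changed sign or a ratio that crossed 1. Another 20 moved by more than 1.5 times (counts), beyond the counting interval (the ratio) or by 0.005 or more (the median). The other 51 stayed within these limits or, for single transcripts, beyond 2-fold in the same direction. The 4 named transcripts kept their direction and stayed beyond 2-fold under each scaling and a pseudocount of 0.1 CPM. No paired analysis was possible because there was only 1 library per age, and for the same reason no library could be left out.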
